A study of Mus musculus with 12 samples.

Results

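The genes described here encode the nuclear-encoded subunits of the mitochondrial respiratory chain and ATP synthase. They were taken by symbol, as every row whose gene name begins with Ndufa, Ndufb, Ndufc, Ndufs or Ndufv and a digit, Uqcr, Cox4 to Cox8 or Atp5, or is Sdha, Sdhb, Sdhc or Sdhd, leaving out names marked as pseudogenes with -ps. The rule found 89 of the 54532 rows of the count table, under 88 symbols: 40 for complex I, 4 for complex II, 8 for complex III, 19 for complex IV and 18 for complex V. Expression entered the test where the average log2CPM (CPM, reads per 1e6 counts) reached -3, which 85 of the 89 rows did. The other 4 were Ndufa11b, Cox7b2, Cox8c and a second identifier named Atp5o, each at or close to 0 counts in every mouse. The annotation lists Ndufa11b, Ndufb4c, Ndufs6b and Cox6c2 as processed pseudogenes, and the last 3 of them passed the cutoff at under 1 CPM. Ndufa4 and Ndufa4l2 are kept with complex I by name, although the Ndufa4 protein is now counted with complex IV.

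RNA was sequenced from whole kidneys of 12 C57BL/6 mice (C57BL/6 J in the study's methods) aged 18 days, 3 in each of 4 groups. Every mouse carried the hypomorphic Pkd1 RC allele, which makes too little functional polycystin-1, over a floxed Pkd1 allele (Pkd1 RC/F). Noncystic control mice with wild-type Pkd2 (Pkd1_RC, mice 19, 20 and 21) and noncystic control mice homozygous for a deletion of the miR-17 motif in the 3′-UTR of Pkd2 (Pkd1_RC_Pkd2_UTR_DD, written here as Pkd2 Δ17/Δ17, mice 22, 23 and 24) had no Cre. Cystic mice (Pkd1F_RC, Pkd2+/+, mice 25, 26 and 27, and Pkd1F_RC_Pkd2_UTR_DD, Pkd2 Δ17/Δ17, mice 28, 29 and 30) lost the floxed allele through Ksp-Cre (Pkd1 RC/-), which acts in tubule epithelium under the cadherin-16 promoter, so other kidney cells keep that allele. The comparison of cystic with noncystic kidneys asks how the disease changes expression, and that of Pkd2 Δ17/Δ17 with Pkd2+/+ kidneys asks what losing the microRNA site does to it. Each mouse gave 18800307 to 24453033 counts on genes. Pkd2 itself lay at 194 to 219 CPM in the noncystic and 213 to 233 CPM in the cystic Pkd2+/+ mice, and at 271 to 286 CPM and 307 to 337 CPM in the respective Pkd2 Δ17/Δ17 mice, so the genotypes did not overlap within either disease state. These counts cover the whole gene and do not show the deletion itself.

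The respiratory chain passes electrons from NADH through complex I, or from succinate through complex II, by way of ubiquinone to complex III, then by cytochrome c to complex IV and oxygen. Complexes I, III and IV pump protons across the inner mitochondrial membrane, and ATP synthase (complex V) lets them back to make ATP. Most subunits are encoded in the nucleus and imported, while a few are made inside the mitochondrion from mitochondrial DNA. In the kidney the proximal tubule and the thick ascending limb, which move large amounts of salt and solute, hold the most mitochondria.

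The promoters of these genes are known for binding sites of NRF1, of the ETS-family factor GABPA (also called NRF2), of YY1 and of estrogen-related receptors (ERR). The RefSeq promoter table (build GRCm38.p6, 250 bases before to 50 after the start) held 68 of the 88 symbols, in 73 promoter sequences. The windows below are shown because they hold such motifs before the start of subunit genes of complexes I, II, III, IV and V whose RNA levels follow. Letters run 5′ to 3′ along the gene's strand, and capitals mark the motif on either strand. The first 3 windows hold the NRF1 motif GCGCATGCG or its reverse complement, the next 2 the ETS motif CCGGAAG, the next the YY1 motif AAGATGGCG and the last the ERR motif AAGGTCA.
Ndufa11 (chr17:56717694-56717720, plus strand): tgcactgcGCGCATGCGCgcacgcctt
Cox6a1 (chr5:115349102-115349128, minus strand): ggaacgggGCGCATGCGCgctctcgct
Atp5g2 (chr15:102671071-102671097, minus strand): ctccggccGCGCATGCGCagagccttc
Sdhd (chr9:50603879-50603905, minus strand): cgtctcctgcCTTCCGGttcacgcttc
Uqcr11 (chr10:80406871-80406897, minus strand): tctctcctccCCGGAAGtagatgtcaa
Atp5j (chr16:84835047-84835073, minus strand): agtgtaggaAAGATGGCGgagtcttag
Ndufb4 (chr16:37654407-37654433, minus strand): cctgagcctgAAGGTCAgactcgagag

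Searched on both strands, the NRF1 motif occurred in 8 of the 73 promoters of subunit genes (11%) and in 575 of all 32851 promoters (1.75%). The ETS motif occurred in 17 (23.3%) against 8.86% of all promoters, the YY1 motif in 7 (9.59%) against 1.40%, and the ERR motif in 8 (11%) against 4.72%. These promoters include 50 bases after the start. Every YY1 match in subunit genes except that of Atp5j lay there, as did some matches of the other motifs. The ETS motif ends in the letters AAG with which the YY1 and ERR motifs begin, so those matches can overlap, and a match is a description of the sequence only. The 8 genes with the NRF1 motif had a median log2 fold change of -0.72 in cystic against noncystic Pkd2+/+ kidneys, and the 59 tested genes whose promoters lacked it one of -0.78. For the ETS motif these medians were -0.77 and -0.78, for YY1 -0.79 and -0.77, and for ERR -0.71 and -0.78. Genes with and without each motif thus lay close together.

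Transcripts of the respiratory chain were lower in cystic kidneys across all complexes. In Pkd2+/+ mice 77 of the 85 genes tested fell at an adjusted p under 0.05 (edgeR quasi-likelihood test with Benjamini-Hochberg adjustment over all 24642 genes tested) and none rose, where 14.2% of all genes fell and 16.9% rose. All 85 fold changes lay below 0. In 77 genes every cystic mouse lay below every noncystic mouse, which held for 19.7% of all genes. The median log2 fold change was -0.77, a loss of 41.5%, against 0.02 over all genes tested. Most subunit genes are highly expressed. Of the 75 with an average log2CPM of at least 5, 74 fell, where 27.5% of all 6809 such genes fell. Summed over all members, subunit transcripts made 31998, 36248 and 30702 CPM in the 3 noncystic Pkd2+/+ mice and 19660, 19177 and 19568 CPM in the 3 cystic ones. The groups were far apart, and the cystic mean was 59.0% of the noncystic one. As a share of all counts, subunit genes took 2.88 to 3.38% in the noncystic and 2.003 to 2.077% in the cystic Pkd2+/+ mice.

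**Figure D1:**
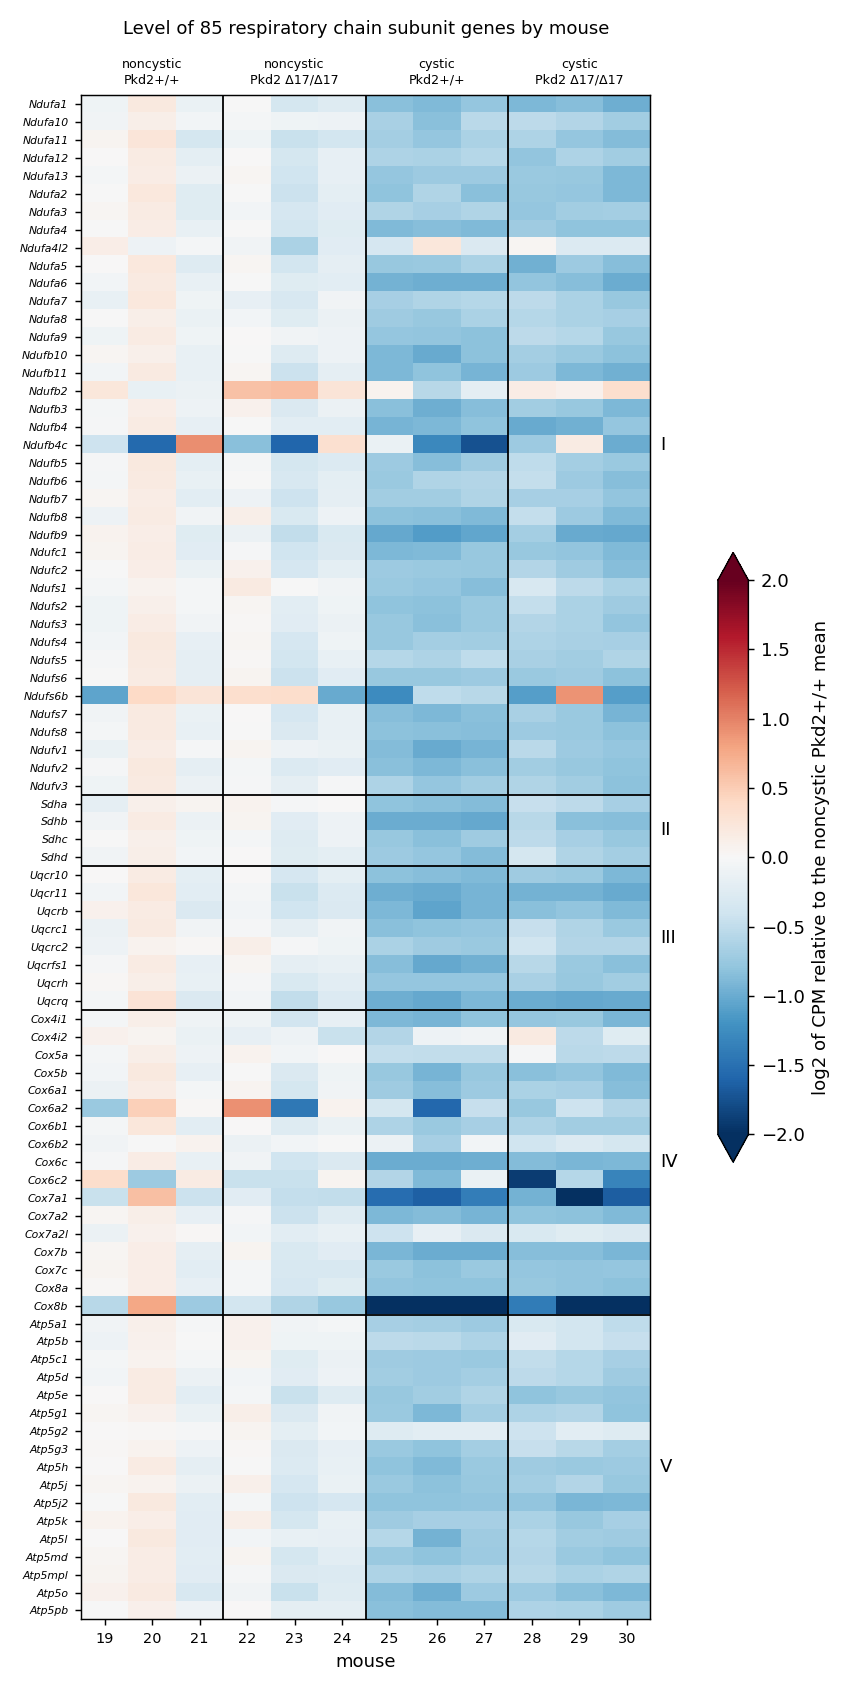
Level of the 85 tested subunit genes in each of the 12 mice, as the log2 of CPM relative to the mean of the noncystic Pkd2+/+ mice (0.05 CPM added to both), with genes in rows ordered by complex (I to V) and mice in columns by group. Nearly all rows turn blue in the 6 cystic mice, and Cox8b and Cox7a1 are among the darkest, while Ndufa4l2, Ndufb2, Cox4i2, Cox6b2, Cox7a2l and Atp5g2 stay pale. Rows of low pseudogenes reach similar or darker shades in single mice.

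These are whole-kidney samples, in which fewer cells of a type and less RNA per cell cannot be told apart. Markers of the proximal tubule moved in the same direction: 11 of 11 fell, and their summed level was 18446 to 19161 CPM in noncystic and 6342 to 8213 CPM in cystic Pkd2+/+ mice. For the distal convoluted tubule 4 of 4 markers fell (1037 to 1520 against 255 to 543 CPM), and for the thick ascending limb 3 of 5 fell and 1 rose (2692 to 3214 against 1653 to 2352 CPM). Lower sums were not limited to tubule segments. Podocyte markers summed to 526 to 625 against 308 to 356 CPM, and endothelial markers to 883 to 1009 against 552 to 709 CPM. Sums of collecting duct markers overlapped (1011 to 1167 against 895 to 2319 CPM). All 6 macrophage markers rose, from 121 to 127 CPM to 283 to 392 CPM, and 4 of 7 fibroblast markers rose and 1 fell (1984 to 2148 against 2979 to 4426 CPM). No defining marker of these lists was at 0, and the part of these cell types in the fall of the subunit genes was not tested.

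Complex I takes electrons from NADH. Of its 39 genes tested 35 fell, with a median log2 fold change of -0.78. All 7 genes of its core, the subunits that carry the flavin and the iron-sulfur clusters, fell by 0.78 to 0.94 on the log2 scale. Ndufv1, the subunit that holds the flavin and oxidises NADH, lay at 379, 458 and 408 CPM in the noncystic and at 227, 205 and 218 CPM in the cystic Pkd2+/+ mice. The lowest noncystic mouse was well above the highest cystic one, and the log2 fold change was -0.94 ± 0.09 (SE, adjusted p = 1.03e-06). Ndufb9 and Ndufa6 are accessory subunits of the LYR family, which bind the mitochondrial acyl carrier protein. Ndufb9 lay at 92.5, 97.0 and 74.6 CPM in noncystic and 43.1, 40.4 and 42.6 CPM in cystic mice, which gave the lowest log2 fold change among called genes of the complex (-1.07 ± 0.12, adjusted p = 2.85e-06). It shares 201 exonic bases with Gm49356 on the same strand, and reads there could not be assigned to either gene. Ndufa6 lay at 278, 327 and 261 CPM and at 150, 146 and 146 CPM (-0.97 ± 0.09, adjusted p = 7.9e-07). Neither gene's groups overlapped.

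Among accessory subunits of complex I, 28 of 32 fell, with a median of -0.75. The 4 that did not pass were the low pseudogenes Ndufs6b and Ndufb4c, Ndufb2 and Ndufa4l2. Ndufa4l2, a relative of Ndufa4 known as a target of hypoxia-inducible factor, lay at 19.6, 16.6 and 17.3 CPM in noncystic and at 14.2, 20.9 and 14.6 CPM in cystic mice. These groups overlapped, at a log2 fold change of -0.11 ± 0.17 (adjusted p = 0.678). With scaling by library totals the value was 0.05, so its sign rests on the scaling. Ndufa4 itself fell from 481, 538 and 437 CPM to 262, 270 and 265 CPM, with no overlap (-0.87 ± 0.10, adjusted p = 3.72e-06). Ndufb2 lay at 10.1, 7.81 and 7.99 CPM in noncystic and 9.06, 5.87 and 7.49 CPM in cystic mice, overlapping groups with a log2 fold change of -0.20 ± 0.17 (adjusted p = 0.429). Its level per length was 1.53 reads per kilobase of merged exons and per 1e6 counts (RPKM) in noncystic Pkd2+/+ mice, far under the 352 of Ndufa4. The Ndufb2 locus overlaps Braf and Gm16272 on the opposite strand and Gm42420 on its own, so its counts are uncertain.

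Complex II, succinate dehydrogenase, also works in the citric acid cycle and is encoded wholly in the nucleus. All 4 genes fell, with a median of -0.82. Sdha, the flavoprotein that oxidises succinate, lay at 886, 1071 and 1043 CPM in noncystic and at 570, 558 and 549 CPM in cystic mice (-0.84 ± 0.09, adjusted p = 2.48e-06). Sdhb, the iron-sulfur subunit, lay at 510, 596 and 494 CPM and at 269, 267 and 263 CPM. Its 3 cystic values differed by few CPM and lay far below the noncystic ones, a loss of 50.1% (log2 fold change -1.002 ± 0.10, adjusted p = 1.36e-06). The membrane anchors Sdhc and Sdhd, which hold the heme and pass electrons to ubiquinone, fell by less than Sdhb and by close to as much as Sdha. Differences between these genes were not tested. Sdhc went from 406, 437 and 385 CPM to 243, 230 and 249 CPM (-0.77 ± 0.09, adjusted p = 3.43e-06). Sdhd went from 351, 403 and 355 CPM to 222, 215 and 202 CPM (-0.80 ± 0.10, adjusted p = 9.79e-06). The groups of none of the 4 genes overlapped.

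All 8 genes of complex III fell, with a median of -0.90. The core proteins Uqcrc1 and Uqcrc2 and the Rieske iron-sulfur protein Uqcrfs1 had a median of -0.80, and the 5 small accessory subunits one of -0.96. The values of largest size belonged to accessory subunits. Uqcr11 lay at 353, 427 and 317 CPM in noncystic and 187, 181 and 193 CPM in cystic mice (-0.97 ± 0.11, adjusted p = 4.05e-06). Uqcrq went from 453, 565 and 384 CPM to 238, 230 and 252 CPM (-0.96 ± 0.12, adjusted p = 1.46e-05), and Uqcrb from 207, 219 and 160 CPM to 104, 93.8 and 103 CPM (-0.96 ± 0.11, adjusted p = 4.12e-06). In all 3 the noncystic mice spread more widely than the cystic ones, without overlap. Nearest to 0 were Uqcrc2, from 374, 423 and 406 CPM to 259, 245 and 239 CPM (-0.70 ± 0.09, adjusted p = 8.76e-06), and the hinge protein Uqcrh, which bridges cytochrome c1 and cytochrome c, from 319, 342 and 283 CPM to 183, 183 and 184 CPM (-0.78 ± 0.09, adjusted p = 3.83e-06).

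Complex IV, cytochrome c oxidase, has several subunits that come in a general form and a tissue form. Of its 17 genes tested 13 fell, with a median of -0.76. The general forms Cox4i1, Cox6a1, Cox6b1, Cox7a2, Cox7b and Cox8a all fell, by 0.67 to 0.97 on the log2 scale. Cox4i1, the largest nuclear subunit, went from 976, 1099 and 948 CPM to 542, 530 and 574 CPM (-0.88 ± 0.10, adjusted p = 2.64e-06). Cox6c went from 709, 794 and 649 CPM to 361, 360 and 366 CPM (-0.99 ± 0.10, adjusted p = 7.94e-07). The cystic mice lay close together in both genes and far below the controls. Cox7a2l went from 196, 224 and 215 CPM to 158, 188 and 172 CPM. It fell by 0.29 ± 0.08 (adjusted p = 0.0105), less than the median of the complex, and its highest cystic mouse was just under its lowest noncystic mouse. The call was lost in 4 of 15 alternatives: with limma-trend (adjusted p = 0.171), with library totals (log2 fold change -0.13, adjusted p = 0.191), without mouse 25 (-0.23, adjusted p = 0.0576) and without mice 20, 27 and 30 (adjusted p = 0.128).

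The tissue forms of complex IV divided by level. Cox4i2, known as the form of lung and of oxygen-sensing cells, was at 2.32 to 3.74 CPM in the Pkd2+/+ mice, with overlapping groups (-0.25 ± 0.23, adjusted p = 0.471). Per length it stood at 4.48 RPKM in noncystic Pkd2+/+ mice, against 650 for Cox4i1. Cox6b2, known from testis, lay at 45.7, 47.3 and 50.3 CPM in noncystic and at 44.3, 30.01 and 46.2 CPM in cystic mice, which overlapped (-0.25 ± 0.12, adjusted p = 0.139). Its level per length was 43.1, and that of Cox6b1 668. Cox6a2, a muscle form, lay at 0.39 to 1.77 CPM (-0.72 ± 0.51, adjusted p = 0.329), and markers of skeletal muscle summed to at most 9.49 CPM in any mouse. Cox7b2 had counts in 1 mouse and Cox8c in none.

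Cox8b and Cox7a1 gave the lowest fold changes of all subunit genes. Both are forms found in heart, skeletal muscle and brown fat. Cox8b lay at 61.1, 154 and 54.3 CPM in noncystic and at 9.52, 15.8 and 15.4 CPM in cystic Pkd2+/+ mice, groups that did not overlap (-2.73 ± 0.59, adjusted p = 0.00172). Cox7a1 went from 48.1, 99.4 and 48.6 CPM to 22.7, 21.05 and 24.95 CPM (-1.51 ± 0.27, adjusted p = 0.000335). Mouse 20 had the highest value of all 12 mice for both, and without it the log2 fold changes were -2.11 for Cox8b (adjusted p = 0.0119) and -1.10 for Cox7a1 (adjusted p = 0.00131). Markers of brown fat moved with them. Ucp1, the uncoupling protein of brown fat, lay at 114, 261 and 76.4 CPM in noncystic and 31.1, 20.8 and 41.5 CPM in cystic mice, and Cidea, a lipid droplet protein abundant there, at 63.1, 176 and 77.0 against 8.48, 12.3 and 14.3 CPM. Of 5 brown fat markers 4 fell, and their summed level was 229 to 582 CPM in noncystic and 46.9 to 89.6 CPM in cystic Pkd2+/+ mice. Over the 12 mice the ratio of Cox8b to Cidea CPM ran from 0.679 to 1.28, that of Cox8b to Ucp1 from 0.306 to 1.57 and that of Cox7a1 to Ucp1 from 0.381 to 14.1, with mouse 29 highest in both ratios to Ucp1. In mouse 29, the mouse with the least brown fat signal (3.42 CPM summed), Cox8b was at 1.61 CPM, while Cox7a1 kept 14.5 CPM. The part of fat tissue left on the kidneys in these values was not tested.

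**Figure D2:**
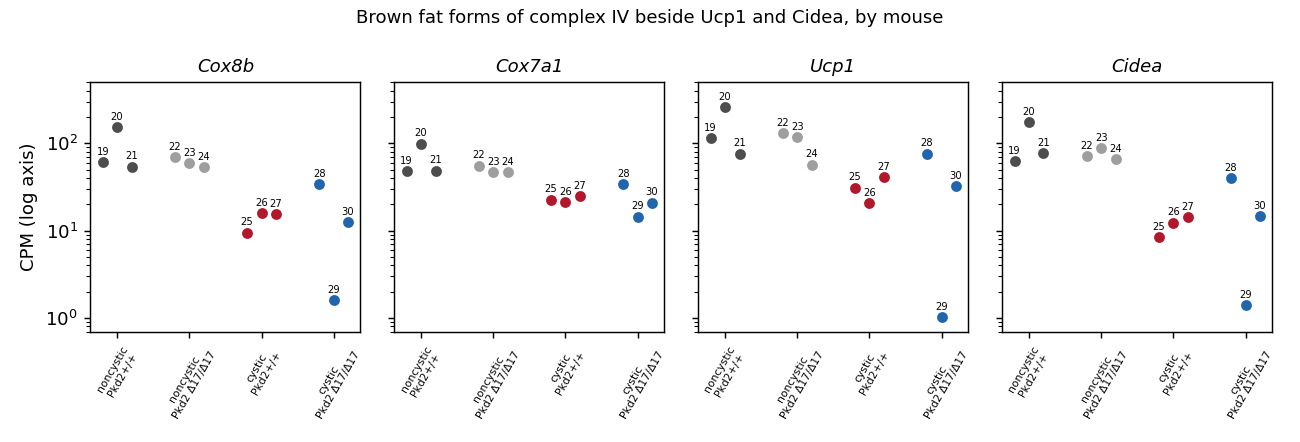
CPM on a log axis of Cox8b, Cox7a1, Ucp1 and Cidea in each of the 12 mice, with 1 point per mouse labelled by its number and groups along the x axis. Mouse 20 is highest and mouse 29 lowest in all 4 panels, and Cox7a1 drops less in mouse 29 (14.5 CPM) than Cox8b (1.61 CPM).

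All 17 genes tested of ATP synthase fell, with a median of -0.74, although the call of one of them, Atp5g2, did not hold under most alternatives. The peripheral stalk, which keeps the catalytic head from turning with the rotor, had a median of -0.83 over its 4 tested genes, the F1 head one of -0.69 over 5 and the small membrane subunits one of -0.74 over 5. The values of largest size were in the stalk. Atp5pb, its b subunit, went from 678, 737 and 638 CPM to 382, 376 and 374 CPM (-0.86 ± 0.08, adjusted p = 9.39e-07), and Atp5h, its d subunit, from 537, 599 and 472 CPM to 307, 291 and 321 CPM (-0.81 ± 0.09, adjusted p = 5.44e-06). Atp5o, the stalk subunit named for oligomycin sensitivity, went from 37.2, 39.7 and 27.8 CPM to 19.2, 17.7 and 21.1 CPM (-0.85 ± 0.13, adjusted p = 8.48e-05), at a level that is uncertain because the locus overlaps its second identifier and further genes. Atp5b, the catalytic beta subunit and the member with the highest count, went from 3218, 3663 and 3430 CPM to 2384, 2367 and 2249 CPM, a smaller fall without overlap (-0.56 ± 0.10, adjusted p = 0.000299).

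Subunit c, the ring that turns as protons pass, is made from 3 genes that encode the same mature protein. Atp5g1 went from 576, 596 and 511 CPM to 334, 302 and 351 CPM (-0.77 ± 0.11, adjusted p = 2.96e-05). Atp5g3 went from 1050, 1083 and 955 CPM to 618, 591 and 639 CPM (-0.74 ± 0.10, adjusted p = 1.62e-05). Atp5g2 went from 191, 194 and 187 CPM to 159, 165 and 165 CPM, a fall of 14.5% (log2 fold change -0.23 ± 0.08, adjusted p = 0.0386), the value nearest to 0 among the called subunit genes. This call was lost in 11 of 15 alternatives, among them leaving out any one of the 6 mice (adjusted p = 0.0523 to 0.102) and scaling by library totals (log2 fold change -0.07). Over the 15 alternatives its adjusted p ran from 0.00894 to 0.538. In cystic kidneys all 3 genes were below every noncystic mouse, and Atp5g2 by the narrowest margin. Per length, the mean level in noncystic Pkd2+/+ mice was 114 RPKM for Atp5g1, 114 for Atp5g2 and 472 for Atp5g3, and in cystic mice 67.0, 97.4 and 283. Merged exons of these genes span 4912, 1675 and 2181 nt, but their principal transcripts 4715, 731 and 723 nt. The comparison between the genes therefore depends on the length used.

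**Figure D3:**
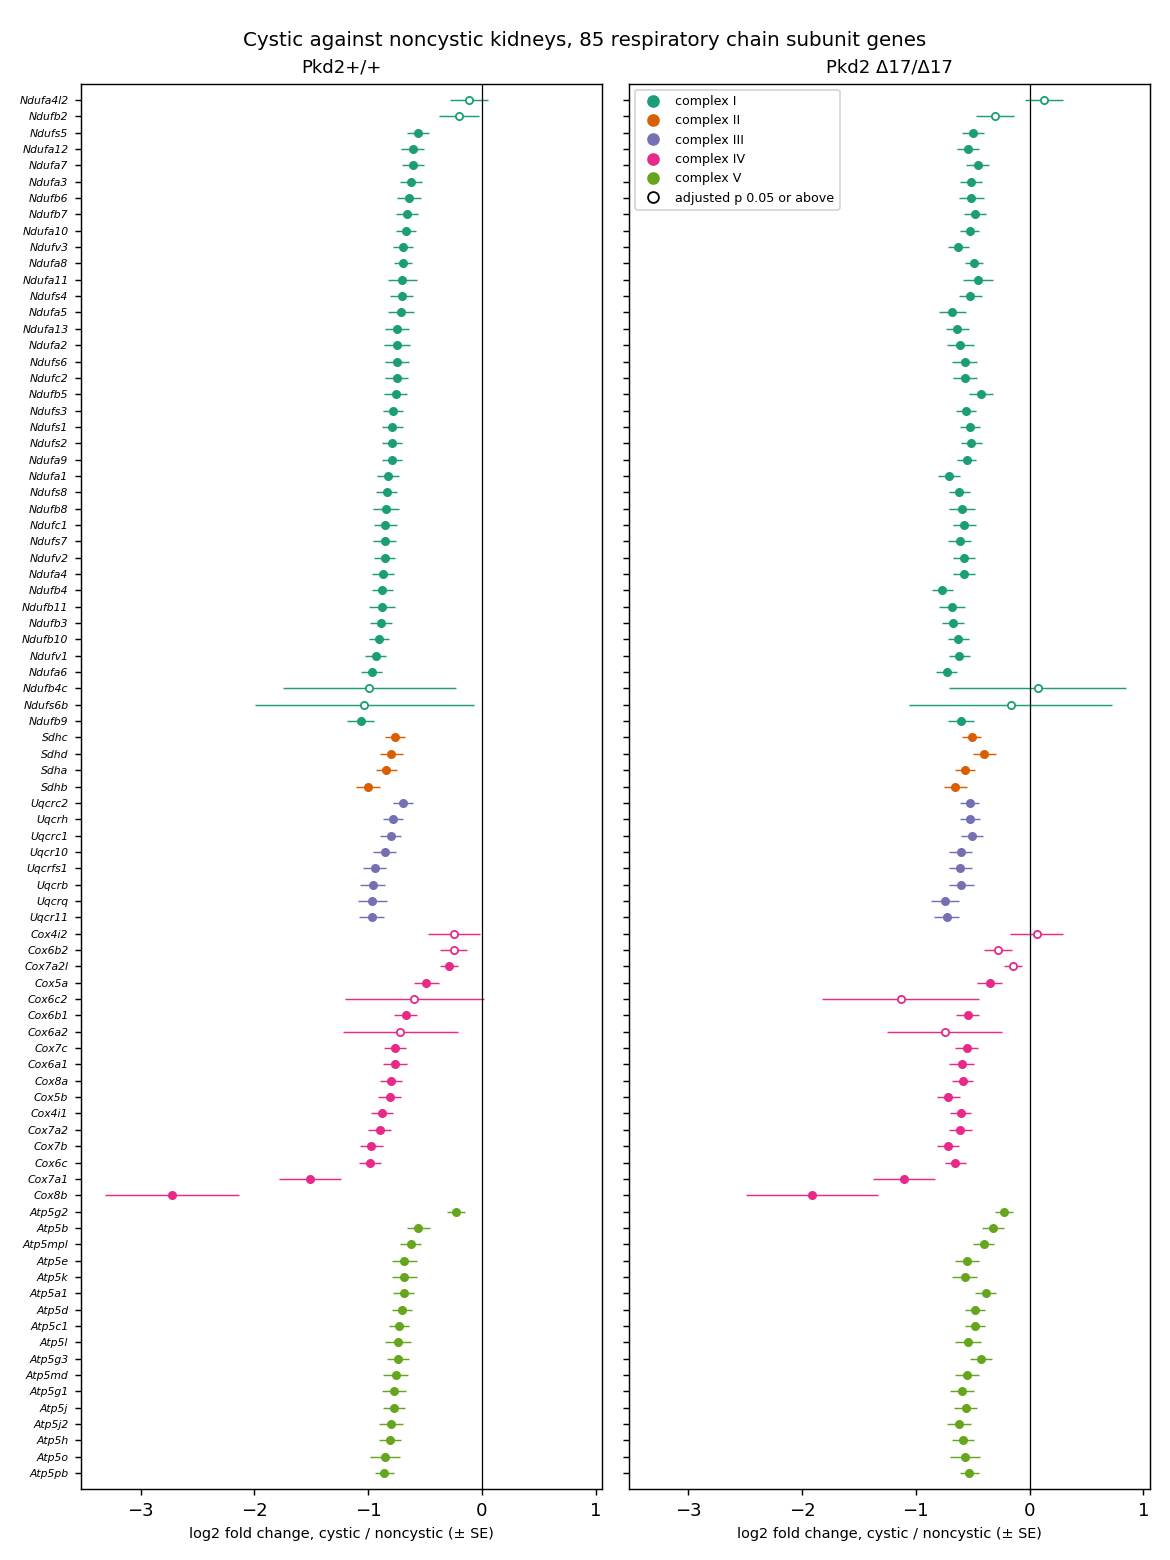
Log2 fold change of cystic against noncystic kidneys for the 85 genes, in Pkd2+/+ mice (left) and in Pkd2 Δ17/Δ17 mice (right), with standard errors as bars, colours for the complexes and open points for an adjusted p of 0.05 or above. On the left all points lie below 0 with a median of -0.77, on the right the median is -0.57, and Cox8b and Cox7a1 are the lowest filled points in both.

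Disease in Pkd2 Δ17/Δ17 mice also came with lower subunit transcripts, with a median nearer to 0. That median also holds a lower noncystic level. The deletion's own median was -0.14 in noncystic and 0.07 in cystic kidneys, and the difference between these effects passed for no subunit gene. In cystic against noncystic Pkd2 Δ17/Δ17 kidneys 76 genes fell and none rose, where 10.2% of all genes fell and 12.8% rose. In 78 genes all cystic mice lay below all noncystic ones, against 17.7% of all genes, and the median was -0.57. By complex, 35 of 39 fell in complex I (median -0.57), 4 of 4 in complex II (-0.54), 8 of 8 in complex III (-0.60), 12 of 17 in complex IV (-0.61) and 17 of 17 in complex V (-0.54). Cox7a2l, with 204, 184 and 190 CPM in noncystic and 171, 178 and 173 CPM in cystic mice, did not pass here (-0.14 ± 0.08, adjusted p = 0.236), and its value was 0.01 with library totals. Sdhb fell from 555, 457 and 496 CPM to 363, 300.2 and 296 CPM (-0.65 ± 0.10, adjusted p = 0.000157). Mouse 28 was the highest cystic mouse for Sdhb, and the groups did not overlap. Some calls in these mice rested on the setting. That of Atp5g2 was lost in 9 of 15 alternatives (adjusted p up to 0.526, log2 fold change -0.07 with library totals). That of Atp5b (-0.32) was lost in 7, with limma-trend, with library totals, with the compared groups only, and without mouse 22 (adjusted p = 0.0962), mouse 29 (0.0808), mouse 30 (0.111) or mice 20, 27 and 30 (0.147). That of Sdhd was lost with library totals (-0.24, adjusted p = 0.0552). Cox8b (-1.91) lost its call in 4, with DESeq2 (adjusted p = 0.0572), without mouse 22 (0.0599), without mouse 30 (0.0839) and without mice 20, 27 and 30 (0.0802), and its value was -3.09 without mouse 28.

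Scaling bears on the size of these falls. With library totals in place of TMM factors, fold changes over all genes moved up by a median of 0.16 in Pkd2+/+ and 0.15 in Pkd2 Δ17/Δ17 mice, the members' medians became -0.61 and -0.41, and 2468 of all genes fell and 6251 rose in Pkd2+/+ kidneys, in place of 3495 and 4170 (1657 and 5334 in place of 2515 and 3164 in Pkd2 Δ17/Δ17). Of the subunit genes 75 and 71 then fell and none rose.

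The Pkd2 deletion was next compared within cystic kidneys. No subunit gene passed an adjusted p under 0.05 in the edgeR test, where 2.23% of all genes did. At an unadjusted p under 0.05, 12 of the 85 genes were higher and none lower, where 7.16% of all genes were higher. That background includes many genes of low expression. Among highly expressed genes (average log2CPM 5 or above), 11 of 75 subunit genes were higher and none lower. Of all 6809 genes at that level, 850 were higher and 672 lower. The share of higher genes was thus similar in both, and only the lack of lower genes set the subunit genes apart. Over the 85 genes the median log2 fold change was 0.07, against 0.00 over all genes. It was 0.033 without mouse 28 and 0.12 without mice 20, 27 and 30. DESeq2 called 3 subunit genes (Ndufs1, Sdha and Atp5a1, adjusted p = 0.0285, 0.0182 and 0.0056), where it called 7.05% of all genes to which it gave an adjusted p, and limma-trend called none. Genes are named in this comparison after their values were seen, as those under 0.05 unadjusted. Ndufs1, the largest iron-sulfur subunit of complex I, lay at 154, 150 and 142 CPM in cystic Pkd2+/+ and 207, 179 and 166 CPM in cystic Pkd2 Δ17/Δ17 mice. The groups did not overlap, and the log2 fold change was 0.31 ± 0.09 (adjusted p = 0.0996). Without mouse 30 it was 0.37 (adjusted p = 0.0474) and without mouse 28 it was 0.21 (adjusted p = 0.42), and over 15 alternatives the adjusted p ran from 0.0285 to 0.42. Sdha lay at 570, 558 and 549 CPM and at 726, 698 and 629 CPM (0.29 ± 0.09, adjusted p = 0.113). Atp5a1, the alpha subunit of the F1 head, lay at 1764, 1733 and 1688 CPM and at 2256, 2162 and 1949 CPM (0.30 ± 0.09, adjusted p = 0.118). Both genes had all Pkd2 Δ17/Δ17 mice above all Pkd2+/+ mice, with mouse 28 highest and mouse 30 lowest of the former.

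The other 9 genes under 0.05 were Ndufv1, Sdhd, Sdhb, Atp5pb, Uqcrfs1, Ndufb2, Uqcrc1, Atp5b and Ndufa9, with log2 fold changes of 0.18 to 0.40 and adjusted p of 0.19 to 0.343. Complex II had 3 of its 4 genes on this list and a median of 0.26, complex I 4 of 39 (0.07), complex III 2 of 8 (0.10), complex V 3 of 17 (0.08) and complex IV none of 17 (0.05). Among complex IV genes the general forms stayed near 0, as with Cox4i1 (0.06 ± 0.09) and Cox8a (0.00 ± 0.09). Summed CPM of complex II genes was 1304, 1269 and 1263 in cystic Pkd2+/+ mice and 1662, 1501 and 1399 in cystic Pkd2 Δ17/Δ17 mice, or 55.3% and 65.8% of the noncystic Pkd2+/+ mean. For complex V the sums were 7813, 7658 and 7672 CPM against 9240, 8775 and 8156 CPM (62.7% and 70.9%), and for complex IV 3832, 3677 and 3857 CPM against 4024, 3912 and 3730 CPM (56.7% and 58.2%). The groups separated for complexes II and V and overlapped for complex IV. A sum follows its most abundant genes. Most of the difference for complex V (means of 7715 and 8724 CPM) came from Atp5a1 (1729 and 2122 CPM) and Atp5b (2333 and 2706 CPM). Of its 17 genes tested, 5 had all cystic Pkd2 Δ17/Δ17 mice above all cystic Pkd2+/+ mice and 1 had all below. Over all members the sums were 19177 to 19660 CPM and 19970 to 22402 CPM.

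**Figure D4:**
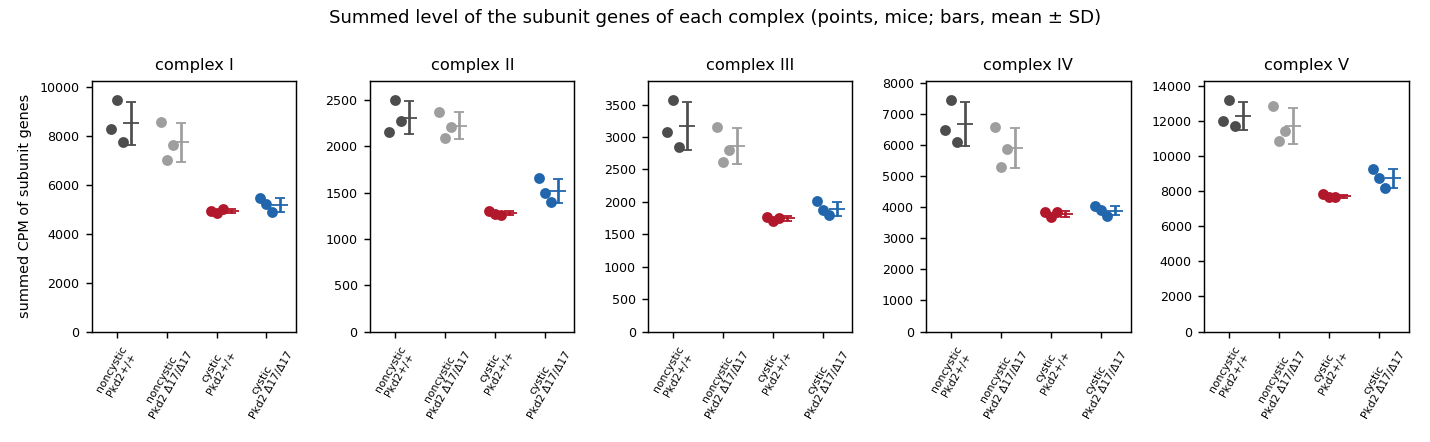
Summed CPM of the subunit genes of each complex, with 1 point per mouse, bars for the mean ± SD of 3 mice, groups along the x axis and the y axis starting at 0. Both cystic groups lie below both noncystic groups in every panel, and the cystic Pkd2 Δ17/Δ17 mice lie above the cystic Pkd2+/+ mice for complexes II, III and V.

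Markers of 2 tubule segments differed in the same comparison. The summed proximal tubule level was 6342 to 8213 CPM in cystic Pkd2+/+ and 8487 to 10140 CPM in cystic Pkd2 Δ17/Δ17 mice, with 2 of 11 markers higher at an adjusted p under 0.05, and for the thick ascending limb it was 1653 to 2352 against 3204 to 3295 CPM, with 2 of 5 higher. Of the 6 macrophage markers 3 fell, from a summed 283 to 392 CPM to 215 to 271 CPM. Adrenal cortex markers, a list chosen after the data were seen, summed to 299 CPM in mouse 30 and 41.1 CPM in mouse 27, and to at most 7.15 CPM in the others. The part of these in the subunit genes was not tested. Without mice 20, 27 and 30 no subunit gene passed in this comparison, and 75 and 70 fell in the disease comparisons.

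In noncystic kidneys the Pkd2 deletion moved no subunit gene past an adjusted p of 0.05, nor did DESeq2 or limma-trend call any, and 0.00406% of all genes passed. Unadjusted, 14 were lower at p under 0.05, where 3.05% of all genes were, and 1 was higher, with a median of -0.14. Mouse 22 had a member sum of 33514 CPM, within the noncystic Pkd2+/+ range, and mice 23 and 24 had 27877 and 29936 CPM, below it. The median was -0.25 without mouse 22 and -0.22 without mouse 21, -0.076 without mouse 20 and -0.080 without mouse 23, and -0.067 without mice 20, 27 and 30. The interaction, the difference between the deletion's effects in cystic and noncystic kidneys, passed for no subunit gene in edgeR, DESeq2 or limma-trend, where 0.0122% of all genes passed. Unadjusted, 16 were higher at p under 0.05, where 4.29% of all genes were, and the median was 0.22. For Sdhd it was 0.40 (adjusted p = 0.441) and for Ndufb9 0.46 (adjusted p = 0.451).

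Transcript length moved with the deletion's values. Over the 79 protein-coding subunit genes with a principal transcript of known length, Spearman's rho between that length and the log2 fold change was 0.46 in cystic and 0.47 in noncystic kidneys, and 0.02 for the disease in Pkd2+/+ mice. These are correlations across genes of the same libraries, which are not independent replicates. In cystic kidneys the median difference with the deletion was 0.03 for the 50 genes under 1000 nt, 0.12 for the 21 of at least 1000 and under 2000 nt and 0.21 for the 8 of 2000 nt or more. Over the 5032 genes with a principal transcript of known length whose average log2CPM reached 5, rho was 0.24 in cystic and 0.47 in noncystic kidneys and 0.22 for the disease in Pkd2+/+ mice. The genes with the higher values in cystic kidneys, Ndufs1 and Sdha among them, have long transcripts for this family (2900 nt for Sdha, against 445 nt for Uqcr11), and the part of length in the deletion's values was not tested.

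**Figure D5:**
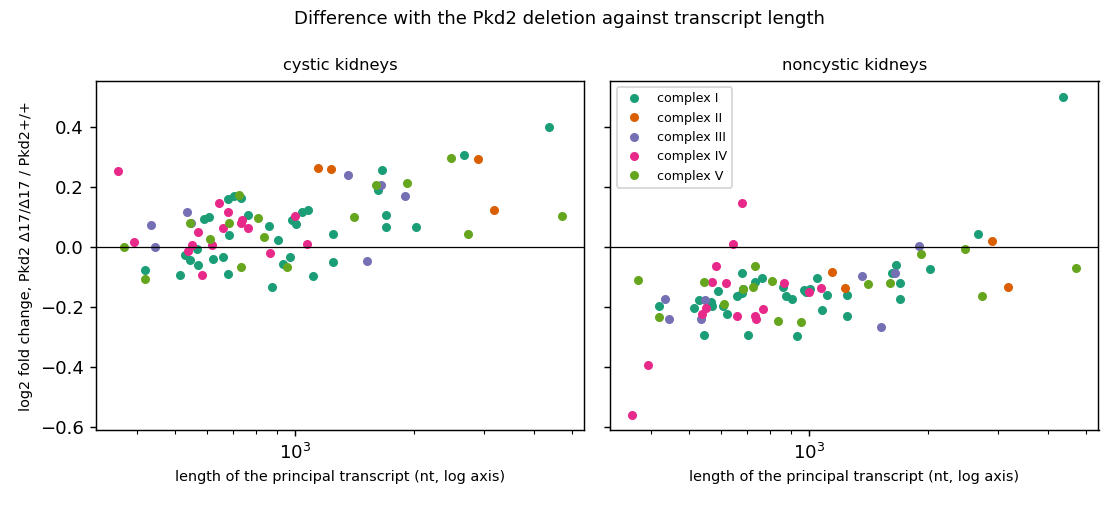
Log2 fold change of Pkd2 Δ17/Δ17 against Pkd2+/+ mice for each of the 79 subunit genes against the length of its principal transcript in nucleotides (log axis), in cystic (left) and noncystic (right) kidneys, with colours for complexes. Points rise from left to right in both panels, with rho of 0.46 and 0.47.

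Further mitochondrial genes are given by class. Of 10 electron carriers and subunits outside the naming rule, 9 fell in cystic Pkd2+/+ kidneys, with a median log2 fold change of -0.74. Cytochrome c (Cycs) went from 385, 418 and 310 CPM to 220, 222 and 222 CPM (-0.74 ± 0.11, adjusted p = 7.72e-05). Cytochrome c1 (Cyc1), a complex III subunit, went from 569, 658 and 550 CPM to 356, 333 and 342 CPM (-0.79 ± 0.10, adjusted p = 9.5e-06). The acyl carrier protein Ndufab1, to which Ndufa6 and Ndufb9 bind, fell by 0.69 ± 0.10 (adjusted p = 4.99e-05). Etfa and Etfb, the electron transfer flavoprotein that brings electrons from fatty acid oxidation, fell by 1.11 ± 0.10 (adjusted p = 3.7e-07) and 1.17 ± 0.17 (adjusted p = 5.43e-05), and for both the groups did not overlap.

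Of the 48 assembly factors tested, which help build the complexes but are not part of them, 30 fell and none rose, with a median of -0.36. Of 77 mitochondrial ribosomal protein genes tested 55 fell (median -0.38), and of 25 import genes 19 fell (median -0.51), with none higher in either list. In Pkd2 Δ17/Δ17 mice the disease lowered 8 of 10 carriers, 16 of 48 assembly factors, 39 of 77 ribosomal protein genes and 15 of 25 import genes. In cystic kidneys the deletion raised 1 ribosomal protein gene and no gene of the other lists. The mitochondrially encoded subunits fell in 11 of 13 genes in cystic Pkd2+/+ kidneys, with a median of -1.03, and in 11 of 13 in Pkd2 Δ17/Δ17 (-0.83). Mt-Nd1 went from 8723, 8921 and 8138 CPM to 4118, 3765 and 4495 CPM (log2 fold change -1.06 ± 0.12, adjusted p = 2.8e-06), while mt-Co2 and mt-Co3 were counted at 5.41 to 15.4 CPM only, so the counts of some mitochondrial genes do not reflect their RNA level.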

How the data were processed

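Whole-kidney RNA of 12 mice was sequenced in read pairs. Per the labels and the paper's methods, the authors trimmed reads with Trim Galore 0.6.3, aligned them to GRCm38 with STAR 2.5.3a and took gene counts from it (Ensembl release 94). The deposited values are raw counts. STAR counts read pairs that map once and to 1 gene, so near-identical copies and overlapping genes are undercounted, and which strand setting was used is not given in the sources used here. Total counts per mouse set the precision. Counts for 343 unnamed genes (0.0225% of counts) stayed in the totals.

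Counts were tested with edgeR 4.0.16 (R 4.3.3), using TMM factors, 1 quasi-likelihood fit over all 12 mice and 4 groups, a cutoff on average log2CPM (library totals, prior count 2) of -3, and Benjamini-Hochberg adjustment with a threshold of 0.05. CPM values use TMM-scaled library sizes. Standard errors are the log2 fold change divided by the square root of the F statistic. Replicates are separate mice. Alternatives were limma-trend 3.58.1 (the study's design, prior count 3), DESeq2 1.42.0, other scalings and filters, an Xist covariate, the compared groups alone, a threshold of 0.01, and leaving out each mouse. A fit without mice 20, 27 and 30 was not planned beforehand, and it is counted among the 15 alternatives given for single genes. The scripts were tested on simulated data. Gene positions, lengths and overlaps came from GENCODE M21 on the same build, which held 99.8% of the identifiers. No column was left out.

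The members and gene lists were chosen with earlier results of these data known. Named genes were all of complex II, in each other complex the 3 called genes with the largest change and the 2 expressed genes nearest to 0 in cystic against noncystic Pkd2+/+ kidneys, and the isoform pairs and subunit c genes. Levels between genes are compared per kilobase of merged exons.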

Additional observations from a re-analysis of the deposited data

How the results depend on the processing

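The numbers of subunit genes called lower with disease held under every alternative run: 75 to 77 in Pkd2+/+ and 69 to 76 in Pkd2 Δ17/Δ17 kidneys, and 75 to 77 and 71 to 76 when 1 mouse was left out, with none higher. For the Pkd2 deletion in cystic kidneys, 0 genes became 3 with DESeq2 and 1 (Ndufs1) without a cutoff on low counts, and 0 to 1 when 1 mouse was left out (Ndufs1, without mouse 30). Without a cutoff, 2 genes were called in noncystic kidneys (Cox7a1 and Cox8b) and 2 for the interaction (Cox8b and Ndufb9). In that setting edgeR gave an adjusted p for disease of 3.36e-43 for Cox7a1 in Pkd2+/+ and 2.07e-68 for Cox8b in Pkd2 Δ17/Δ17 kidneys. With another filter on low counts these were 0.000631 and 0.0268, at nearly the same log2 fold changes. Calls of Cox7a1 and Cox8b made only without a cutoff are therefore uncertain. For Atp5g2 in Pkd2+/+ kidneys the adjusted p was instead larger without a cutoff (0.0616 against 0.021). The cause was not tested. The log2 fold change of Ndufa4l2 turned from -0.11 to 0.031 with limma-trend and 0.046 with library totals in Pkd2+/+ kidneys. In Pkd2 Δ17/Δ17 kidneys that of Ndufa4l2 ran from -0.036 (without mouse 23) to 0.25 as 1 mouse was left out, that of Cox4i2 from -0.15 (without mouse 28) to 0.21, and that of Cox7a2l turned to 0.0089 with limma-trend and 0.0085 with library totals. None of these was called there. No paired analysis was possible because mouse numbers are unique and pair no samples across groups. The median standard error of a subunit gene's log2 fold change was 0.0989 for disease in Pkd2+/+ kidneys, which limits the size of difference that 3 mice per group could show.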

Other observations

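The naming rule left out Ndufb1-ps, a row named as a pseudogene with the level of an expressed gene. It lay at 52.9, 63.6 and 40.2 CPM in noncystic and at 34.2, 35.4 and 38.1 CPM in cystic Pkd2+/+ mice, groups that did not overlap (log2 fold change -0.54 ± 0.13, adjusted p = 0.00501 by edgeR), and at 47.5, 39.9 and 41.8 CPM against 38.1, 30.2 and 32.9 CPM in Pkd2 Δ17/Δ17 mice (-0.35 ± 0.14, adjusted p = 0.0743).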
